A study of Arabidopsis thaliana with 12 samples.

Results

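Plant small RNAs are cut from longer RNA by Dicer-like (DCL) proteins, large RNase III enzymes that work with RNA-binding partners. The 9 genes described here encode the DCL enzymes of Arabidopsis thaliana (DCL1, AT1G01040; DCL2, AT3G03300; DCL3, AT3G43920; DCL4, AT5G20320), the miRNA processing partners HYL1 (AT1G09700) and SERRATE (SE, AT2G27100), the small RNA methyltransferase HEN1 (AT4G20910), and the dsRNA-binding proteins DRB2 (AT2G28380) and DRB4 (AT3G62800). They were taken by gene ID, 9 of the 33610 IDs in the mRNA files. No measured value was a criterion, though earlier results of these data were known when they were chosen. All 9 passed the filter for testing, a mean over the libraries of 1 FPKM or more (fragments scaled to transcript length and to library depth), with 20743 genes in all.

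The study compared inflorescences of wild-type plants of the Columbia (Col) ecotype with inflorescences of amiR-SEAP1 plants, which carry an artificial miRNA against SEAP1, and asked how miRNAs and mRNAs accumulate when SEAP1 is targeted. Such a transgene is designed so that plant silencing enzymes cut 1 chosen mRNA. The labels name no promoter for it, no number of independent transgenic lines and no pooling of plants, and give no treatment for either genotype. There were 4 mRNA libraries and 2 small RNA libraries per genotype. No gene name in the reference matched SEAP1, so the targeted gene is not analysed here.

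In the canonical miRNA pathway DCL1 cuts the primary transcript and then the hairpin, and HYL1 and SE bind with it and place the cuts. HEN1 methylates the 3′ ends of the resulting duplex, which protects it from tailing and decay. DCL2, DCL3 and DCL4 mainly process long dsRNA into siRNAs: DCL4 with DRB4 makes trans-acting siRNAs, DCL3 makes the siRNAs that guide DNA methylation, and DCL2 acts mainly in antiviral and transgene silencing. DCL1 mRNA is itself a target of miR162, and miR838 lies within an intron of DCL1, so DCL1 is known for feedback by its own products.

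The file headers split the mRNA libraries of both genotypes into a set tagged FLW (replicates 1 and 2) and a set tagged AI (replicates 3 and 4). The labels do not explain these tags, and the headers of the amiR-SEAP1 libraries also read R15 in the FLW set and R155 in the AI set, so header tag and set cannot be told apart in amiR-SEAP1. Over 1226 genes of at least 100 FPKM, the median coefficient of variation within a pair of libraries was 1.07% to 1.31%, against 15.2% between the wild-type sets and 10.4% between the amiR-SEAP1 sets. Each pair was therefore counted as 1 value, giving n = 2 sets per genotype. FPKM summed to between 680667 and 715611 per library. The inflorescence markers AP1, AP3, PI, AG, SEP3 and LFY were all detected, and summed to 654 to 734 FPKM in wild type and 527 to 723 in amiR-SEAP1. In the FLW set that sum was 659 and 654 in wild type and 527 in both amiR-SEAP1 libraries, while in the AI set it was 734 and 727 against 723 and 714. LFY, a small part of the sum, was at 0.810 and 1.37 FPKM in wild-type FLW and 1.83 and 1.61 in amiR-SEAP1 FLW. In AI it was at 1.37 and 1.27 FPKM against 2.64 and 2.44, so LFY was higher in amiR-SEAP1 in both sets. The 6 pollen markers ADF7, PRF4, PPME1, AT5G45880, VGD1 and SKS13 summed to 1844 to 3126 FPKM in wild type and 1589 to 2254 in amiR-SEAP1, and none was at 0. The pollen sum was lower in amiR-SEAP1 within each set. It was 3126 and 3116 against 2251 and 2254 in FLW, and 1847 and 1844 against 1589 and 1604 in AI. The 6 green tissue markers LHCB1.1, LHCB2.2, RBCS1A, PSBO1, LHCA1 and PSAF summed to 8865 to 11027 FPKM in wild type and 9146 to 11627 in amiR-SEAP1. In bulk tissue, fewer cells of a type and less RNA per cell cannot be told apart, and the part of tissue content in the results below was not tested.

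Across the 8 libraries DRB2 had the highest level, a mean of 37.6 FPKM, ahead of SE at 33.4 and HYL1 at 20.3, and each of these lay above the next gene in all 8 libraries. Per transcript length, these 3 partners were thus more abundant than any of the DCL enzymes in every library. DRB4 followed with a mean of 12.6 FPKM, above DCL3 in 7 of 8 libraries. DCL3 (10.4 FPKM) and DCL1 (10.4 FPKM) changed places between the header sets. DCL3 was the lower in all 4 FLW libraries and the higher in all 4 AI libraries. HEN1 averaged 8.52 FPKM and DCL2 8.18 FPKM, and HEN1 was likewise below DCL2 in all 4 FLW libraries and above it in all 4 AI libraries. DCL4 was the lowest, with a mean of 6.71 FPKM, and lay below DCL2 in every library.

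**Figure D1:**
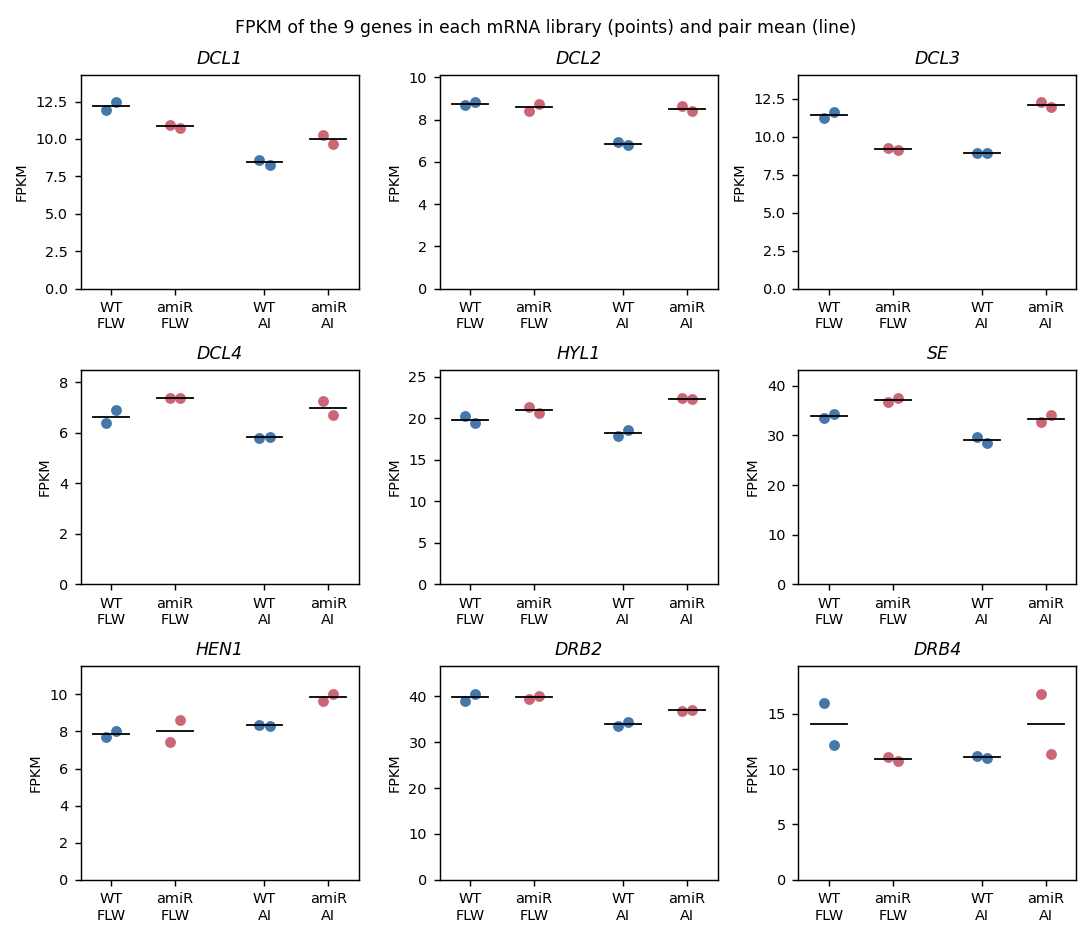
FPKM of each of the 9 genes in each mRNA library (points) with the mean of the pair (line), by genotype (WT, wild type; amiR, amiR-SEAP1) and header set (FLW, AI). In the AI set both amiR-SEAP1 points lie above both wild-type points for all 9 genes, while in the FLW set DCL1, DCL3 and DRB4 lie below wild type.

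Over both sets, none of the 9 mRNAs was shown to differ between the genotypes. The test (limma on log2(FPKM + 1) of the pair means with the set as a term, Benjamini-Hochberg adjustment over 20743 genes) called 0 of 9, and at an unadjusted p of 0.05 it also counted 0 of 9. Among all genes it called 0% in either direction, with 6.95% higher and 7.16% lower at that unadjusted p. The median difference of the 9 genes was 0.12 on the log2 scale against 0.03 for all tested genes, and 8 of 9 lay above 0, as did 55.1% of all genes. A fit that took the 8 libraries as independent called 0 of the 9, against 7.5% of genes higher and 4.7% lower. The same fit with a set term called 3 of the 9 higher, where the background was 22.5% higher and 18.3% lower. Those 3 were SE (adjusted p = 0.00719), DCL4 (adjusted p = 0.0196) and HYL1 (adjusted p = 0.0223), but that limma fit counts each pair of near-identical libraries as 2. With a pair correlation in place of the pair means limma called 0 of the 9, where the background was 0.231% higher and 0.082% lower.

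DCL1, the miRNA-producing enzyme, was at 11.9 and 12.4 FPKM in wild type and 10.9 and 10.8 in amiR-SEAP1 in the FLW set. In the AI set it was at 8.61 and 8.25 FPKM in wild type and 10.3 and 9.67 in amiR-SEAP1. The wild-type pairs lay on either side of the amiR-SEAP1 libraries, which stayed within a narrow range. Set means were 10.3 ± 2.65 FPKM in wild type and 10.4 ± 0.615 in amiR-SEAP1 (SD, n = 2), a difference of 0.03 on the log2(FPKM + 1) scale with a standard error of 0.14 (limma, adjusted p = 0.925). Its 95% interval ran from −0.35 to 0.42. In the reference DCL1 overlaps a lncRNA gene (AT1G03993), MIR838 and the protein-coding gene PPa1 (AT1G01050), and since the counting's use of strand is not given in the sources used here, reads of overlapping genes may be mixed. The same holds for DCL2, DCL3, HYL1 and DRB2, so that 5 of the 9 genes overlap another.

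HYL1, which binds the miRNA precursor, was at 20.2 and 19.4 FPKM in wild type and 21.3 and 20.6 in amiR-SEAP1 in the FLW set. In AI the values were 17.9 and 18.5 in wild type and 22.4 and 22.3 in amiR-SEAP1. It was the 1 gene of the 9 whose 4 amiR-SEAP1 libraries all lay above the 4 wild-type libraries, a pattern seen in 14.8% of all tested genes. The difference was 0.18 with a standard error of 0.10 on the log2 scale (limma, adjusted p = 0.465).

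SE, the zinc-finger protein of the processing complex, was at 33.6 and 34.4 FPKM in wild type and 36.9 and 37.6 in amiR-SEAP1 in the FLW set, and at 29.6 and 28.4 against 32.6 and 34.2 in the AI set. The amiR-SEAP1 libraries were above wild type in both sets, by 0.13 and 0.20 on the log2 scale. The difference over both sets was 0.16 with a standard error of 0.09 (limma, adjusted p = 0.450). With the replicate number as a block on the 8 libraries, SE was the 1 gene of the 9 that limma called (adjusted p = 0.0427). That fit called 2852 of 20743 tested genes higher and 2306 lower.

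HEN1 was at 7.73 and 8.01 FPKM in wild type and 7.41 and 8.64 in amiR-SEAP1 in the FLW set, where the genotypes overlapped. In the AI set it was at 8.36 and 8.29 FPKM in wild type and 9.65 and 10.1 in amiR-SEAP1. Its difference over both sets was 0.12 with a standard error of 0.12 on the log2 scale (limma, adjusted p = 0.633).

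DCL2 was at 8.71 and 8.82 FPKM in wild type and 8.43 and 8.76 in amiR-SEAP1 in the FLW set. AI values were 6.93 and 6.78 FPKM in wild type and 8.64 and 8.39 in amiR-SEAP1. The AI wild-type pair was the low one and the other 3 pairs lay close together. The difference over both sets was 0.13 with a standard error of 0.13 on the log2 scale (limma, adjusted p = 0.657).

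DCL3, the enzyme of the DNA methylation pathway, had the widest split between sets. It was at 11.2 and 11.6 FPKM in wild type and 9.23 and 9.10 in amiR-SEAP1 in the FLW set, and at 8.95 and 8.92 against 12.3 and 12.0 in the AI set. The order of the genotypes was opposite in the 2 sets, with no overlap in either. Over both sets the difference was 0.06 with a standard error of 0.20 on the log2 scale (limma, adjusted p = 0.910).

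DCL4, which makes the trans-acting siRNAs, was at 6.40 and 6.90 FPKM in wild type and 7.38 in both amiR-SEAP1 libraries in the FLW set. Wild type in the AI set was at 5.80 and 5.85 FPKM and amiR-SEAP1 at 7.26 and 6.71. The amiR-SEAP1 libraries were above wild type within each set, and across sets amiR-SEAP1 replicate 4 lay below wild-type replicate 2. The difference was 0.18 with a standard error of 0.11 on the log2 scale (limma, adjusted p = 0.494), and its 95% interval ran from −0.14 to 0.50.

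DRB4, the partner of DCL4, was at 16.0 and 12.2 FPKM in wild type and 11.1 and 10.7 in amiR-SEAP1 in the FLW set. In the AI set it was at 11.2 and 11.1 FPKM in wild type and 16.9 and 11.4 in amiR-SEAP1. A library of each of 2 pairs stood apart from its pair mate, wild-type replicate 1 by a factor of 1.31 and amiR-SEAP1 replicate 3 by a factor of 1.48. Only 0.83% and 0.291% of genes within a factor of 2 of its level differed by more in those pairs. The difference over both sets was −0.01 with a standard error of 0.18 on the log2 scale (limma, adjusted p = 0.974). It turned to 0.08 without wild-type replicate 1, to 0.12 without amiR-SEAP1 replicate 4, and to 0.014 with every library scaled to the same FPKM sum.

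DRB2, which acts in an alternative branch of miRNA processing, was at 39.1 and 40.6 FPKM in wild type and 39.4 and 40.2 in amiR-SEAP1 in the FLW set. The AI values were 33.6 and 34.4 against 36.8 and 37.1 FPKM. The genotypes overlapped in the FLW set and did not in the AI set. The difference over both sets was 0.06 with a standard error of 0.09 on the log2 scale (limma, adjusted p = 0.777).

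Within the AI set all 9 genes were higher in both amiR-SEAP1 libraries than in both wild-type libraries, by 0.12 (DRB2) to 0.40 (DCL3) on the log2(FPKM + 1) scale. Of all tested genes 48.7% lay above wild type in this way in the AI set and 33.8% below. The median change of the 9 was 0.22 there, against 0.06 for all genes. Within the FLW set 3 of the 9 (DCL4, HYL1 and SE) lay above wild type, where the background was 37.4%, and 3 (DCL1, DCL3 and DRB4) lay below, where it was 38.2%. The FLW changes ran from −0.33 (DRB4) to 0.13 (DCL4), with a median of −0.003 (all genes −0.003). DCL4, HYL1 and SE were above wild type in both sets (25.7% of all genes were), and DCL1, DCL3 and DRB4 were below in FLW and above in AI (11.5% of all genes were). None of the 9 lay below wild type in both sets (19.9% of all genes did), and the mean change was above 0 in both sets for 4 of the 9 (36.7% of all genes). The AI change of DRB4 rests on amiR-SEAP1 replicate 3 and was 0.03 without it, and its FLW change was −0.14 without wild-type replicate 1.

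**Figure D2:**
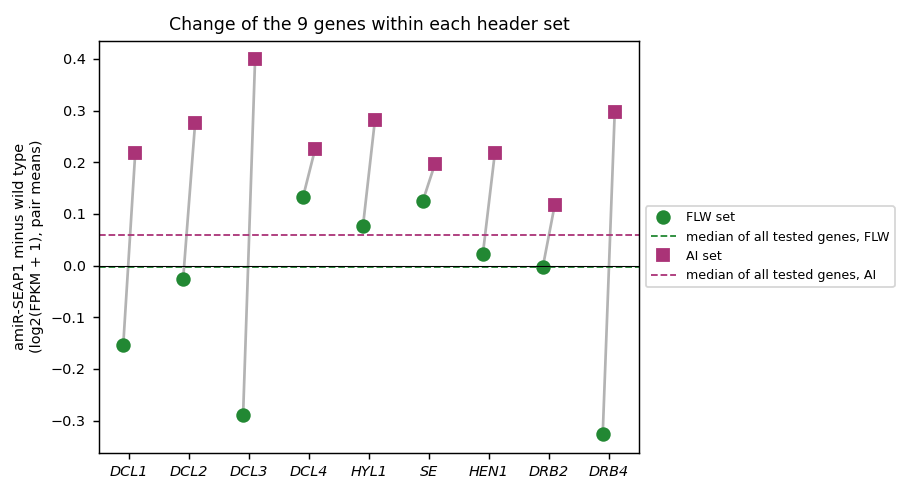
Difference between amiR-SEAP1 and wild type on the log2(FPKM + 1) scale for each of the 9 genes, from pair means within the FLW set (circles) and the AI set (squares), with dashed lines at the medians of all tested genes. Every square lies above 0, from 0.12 to 0.40, while the circles lie between −0.33 and 0.13.

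The difference between the sets was tested as an interaction of set and genotype in limma on the 8 libraries, chosen after seeing the data. Its error is the spread within pairs alone, so its p-values are too small as statements about plants. It called 5 of the 9 with a change that was higher in the AI set, and 0 lower, where the background was 24% higher and 18.9% lower. For DCL3 the AI change exceeded the FLW change by 0.69 with a standard error of 0.06 on the log2 scale (limma, adjusted p = 3.29e-05). For DCL1 the excess was 0.37 with a standard error of 0.07 (limma, adjusted p = 0.00259), for DCL2 0.30 (limma, adjusted p = 0.00700) and for HYL1 0.21 (limma, adjusted p = 0.0136). DRB4 passed at an adjusted p of 0.0490 in limma, and missed at 0.0501 with a pseudocount of 5, at 0.0833 with quantile normalization and at 0.127 with no filter on low values. DRB4 was also missed without any 1 of 6 of the 8 libraries, among them wild-type replicate 1 (limma, adjusted p = 0.151) and amiR-SEAP1 replicate 3 (limma, adjusted p = 0.117). DCL4, SE, HEN1 and DRB2 were not called. DRB2 was near the threshold (limma, adjusted p = 0.0508) and was called with no filter (0.0494), at the same FPKM sum (0.0275) and without wild-type replicate 1 (0.0391). HEN1 was called without amiR-SEAP1 replicate 2 (limma, adjusted p = 0.0232). The median change of the 6 pollen markers was −0.53 in FLW and −0.24 in AI. That of the 6 inflorescence markers was −0.29 and 0.03, with LFY higher in amiR-SEAP1 in both sets. That of the 6 green tissue markers was 0.10 and 0.06. The pollen and inflorescence medians thus moved differently in the sets, and the green tissue median differed little. Single green tissue markers did differ between the sets, in both directions. LHCB2.2 changed by a factor of 1.13 in FLW and 1.59 in AI, and LHCB1.1 by 1.13 and 0.973. The part of tissue content in these values was not tested. Between the sets themselves, AI against FLW over both genotypes, limma called 0 of the 9 genes and 0% of all genes, DCL1 having the largest difference of the 9 at −0.30 (limma, adjusted p = 0.313).

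The DCL enzymes differed in how steady their share of the summed DCL FPKM was. DCL2 held 22.2% to 22.9% in wild type, 23.4% and 24.3% in amiR-SEAP1 FLW and 22.5% and 22.8% in amiR-SEAP1 AI, where it overlapped wild type. DCL1 made up 31.2% and 31.3% of the summed DCL FPKM in wild-type FLW and 30.4% and 29.9% in amiR-SEAP1 FLW. Its share in the AI set was 28.4% and 27.7% in wild type and 26.7% and 26.3% in amiR-SEAP1. DCL3 held 29.3% to 29.9% in all 4 wild-type libraries, 25.7% and 25.3% in amiR-SEAP1 FLW, and 31.9% and 32.6% in amiR-SEAP1 AI. The DCL3 share thus lay below wild type in amiR-SEAP1 FLW and above it in amiR-SEAP1 AI. The share of DCL4 was 16.7% and 17.3% in wild-type FLW and 20.5% in both amiR-SEAP1 FLW libraries, while in AI it was 19.1% and 19.6% against 18.9% and 18.3%. HYL1 FPKM per DCL1 FPKM was 1.70 and 1.56 in wild-type FLW, 1.95 and 1.92 in amiR-SEAP1 FLW, 2.08 and 2.25 in wild-type AI and 2.19 and 2.30 in amiR-SEAP1 AI. These shares and ratios are descriptions with no test.

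Genes that work with the dicing complex were described through 4 lists, and limma on pair means called 0 genes in each. Of 27 miRNA processing cofactors, 25 had a difference above 0 with a median of 0.18, and at an unadjusted p of 0.05 limma counted 6 higher and 0 lower. Over all genes 55.1% lay above 0, and 6.95% were higher and 7.16% lower at that p. With the 8 libraries taken as independent, which counts each pair as 2, limma called 10 of the 27 higher against 7.5% of all genes, and with the estimated pair correlation it called 0 of the 27. CBP20, the small subunit of the nuclear cap-binding complex, was at 36.9 to 38.6 FPKM in wild type and 48.1 to 51.3 in amiR-SEAP1 (difference 0.39 with a standard error of 0.09, limma, adjusted p = 0.286). STA1, a splicing factor that also acts in miRNA processing, was at 21.0 to 24.1 FPKM in wild type and 27.8 to 29.9 in amiR-SEAP1 (difference 0.35, limma, adjusted p = 0.300). In each of the 4 lists the 2 genes with the smallest adjusted p were described. For CBP20 and STA1 all 4 amiR-SEAP1 libraries lay above all 4 wild-type libraries. Their choice by p favours this pattern, so its share of 14.8% among all tested genes is not a background for them.

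GRP7, a clock-regulated RNA-binding protein and the far point of this list, was named after its values were seen. It was at 1365 and 1389 FPKM in wild-type AI and at 200 to 230 FPKM in the other 6 libraries. Its difference of −1.32 had a standard error of 0.73 (limma, adjusted p = 0.455), with the wild-type AI pair standing apart.

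Of 7 other RNase III and DRB genes, 6 were tested, 5 lay above 0 (55.1% of all genes did) with a median of 0.31, and limma counted 2 higher at an unadjusted p of 0.05 (6.95% of all genes). DRB5, a dsRNA-binding protein related to DRB2, was at 20.1 to 26.0 FPKM in wild type and 28.5 to 32.5 in amiR-SEAP1 (difference 0.41, limma, adjusted p = 0.287). AT1G80650, annotated as an RNase III-like gene, was at 15.5 and 15.9 FPKM in wild-type FLW and 9.49 and 9.71 in wild-type AI, and at 19.0 to 21.7 in amiR-SEAP1 (difference 0.67, limma, adjusted p = 0.293). The reference gives the symbol RTL1 both to AT1G80650 and to AT4G15417, and AT4G15417 was below the filter, at no more than 0.209 FPKM in any library.

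Of 16 siRNA pathway partners of DCL2, DCL3 and DCL4, 14 lay above 0 (55.1% of all genes did) with a median of 0.14, and limma counted 2 higher at an unadjusted p of 0.05 (6.95% of all genes). SHH1, which recruits RNA polymerase IV for the DCL3 pathway, was at 8.50 to 11.0 FPKM in wild type and 12.3 to 13.9 in amiR-SEAP1 (difference 0.44, limma, adjusted p = 0.286). AGO9, an Argonaute known from ovules, was at 80.0 and 80.7 FPKM in wild-type FLW against 118 in both amiR-SEAP1 libraries, and at 59.3 and 60.2 against 73.1 and 71.1 in AI (difference 0.41, limma, adjusted p = 0.317).

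Over both sets all 7 genes of miRNA effectors and turnover lay above 0 (55.1% of all genes did), the smallest at 0.01, with a median of 0.20. The list median was 0.07 in FLW and 0.33 in AI, against −0.003 and 0.06 for all genes. At an unadjusted p of 0.05 limma counted 2 higher (6.95% of all genes). SDN2, a nuclease that degrades mature miRNAs, was at 12.2 to 14.3 FPKM in wild type and 17.6 to 21.2 in amiR-SEAP1 (difference 0.52, limma, adjusted p = 0.271). Its relative SDN3 was at 18.6 to 20.1 FPKM and 25.7 to 27.7 (difference 0.45, limma, adjusted p = 0.272). The 4 list medians, 0.14 to 0.31, and that of the 9 dicing genes, 0.12, all lay above the 0.03 of all genes.

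**Figure D3:**
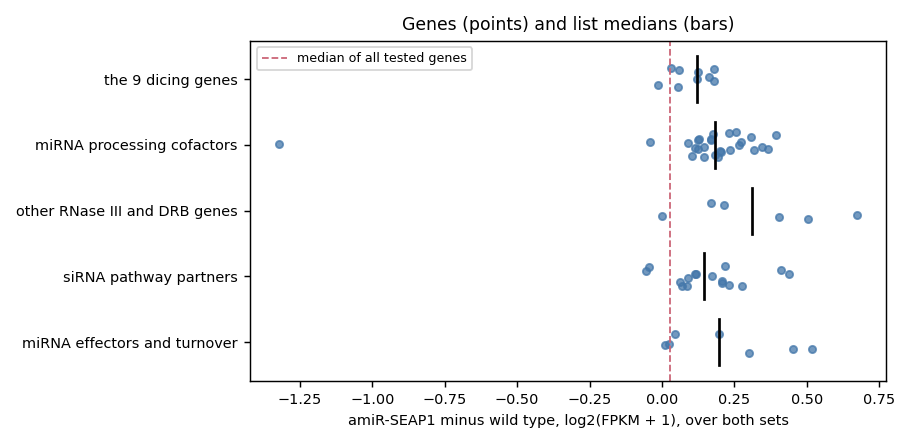
Difference between amiR-SEAP1 and wild type on the log2(FPKM + 1) scale over both sets for each tested gene (points) of the 9 dicing genes and 4 related lists, with list medians (bars) and the median of all tested genes (dashed line, 0.03). Most points lie above 0, and GRP7 is the far point at −1.32.

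The miR162 and miR838 loci link DCL1 to its own products. The primary transcript of MIR162a was at 13.4 FPKM in both wild-type FLW libraries and 11.1 and 11.4 in wild-type AI. In amiR-SEAP1 it was at 9.16 and 8.23 FPKM in FLW and 8.82 and 8.58 in AI. All 4 amiR-SEAP1 libraries lay below all 4 wild-type libraries, as for 9.56% of tested genes, with a difference of −0.45 and a standard error of 0.12 on the log2 scale (limma, adjusted p = 0.298). With the 8 libraries taken as independent, which counts each pair as 2, the adjusted p in limma was 0.00975, and with the estimated pair correlation it was 0.373. MIR162b was at 0.206 to 0.508 FPKM and was not tested. MIR838, added to the list after the files were seen, was at 3.78 to 5.38 FPKM with a difference of 0.04 (limma, adjusted p = 0.907), and because it lies inside DCL1 its reads may be those of DCL1.

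The small RNA libraries held 2160372 and 2043025 counts on miRNAs in wild type and 1436816 and 1020947 in amiR-SEAP1. Scaled to all alignments, miRNAs summed to 33997 and 28263 CPM (counts scaled to library size) in wild type and 18985 and 14536 in amiR-SEAP1, a ratio of 0.538. miR162a-3p, the arm that targets DCL1, had 6252 and 4521 counts in wild type and 2805 and 3358 in amiR-SEAP1. On the scale of all alignments this was 80.5 ± 25.3 CPM and 42.4 ± 7.60 CPM (SD, n = 2), a ratio of 0.527, close to that of miRNAs as a whole. Relative to other miRNAs its difference was −0.21 on the log2 scale (edgeR quasi-likelihood, adjusted p = 0.759), and it turned to 0.037 without TMM scaling. On the scale of all alignments the miR162a-3p difference was −0.92 (edgeR, adjusted p = 0.0684). The miR162b-3p row had similar counts, 6512 and 4700 against 2907 and 3434. How reads that match both rows were counted is not given, so the 2 rows may share reads. The 5p arms of miR162 had 59 to 121 counts per library. miR838 had 13 and 20 counts in wild type and 22 and 6 in amiR-SEAP1 (edgeR, difference 0.34, adjusted p = 0.812), on at most 22 counts per library. None of these 5 rows was called, where edgeR called 4.76% of 294 miRNAs higher and 0.34% lower.

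**Figure D4:**
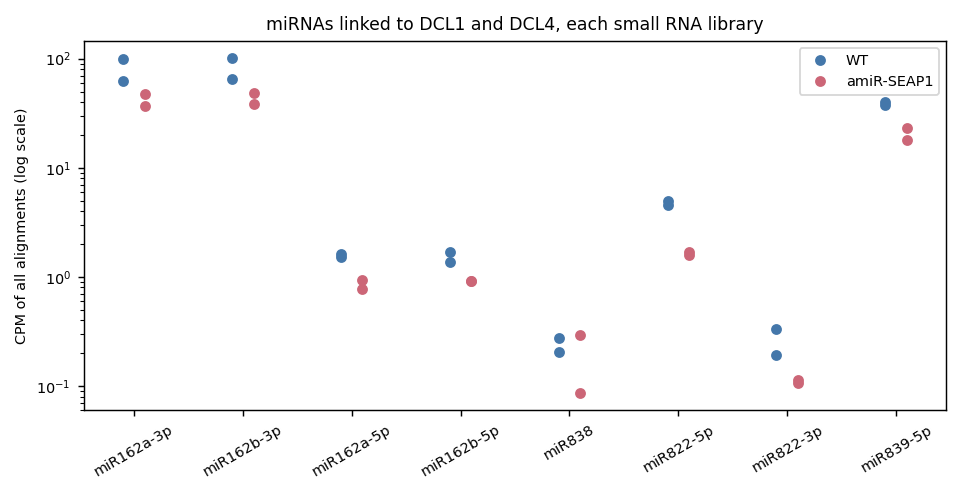
CPM of all alignments (log scale) of miR162, miR838 and miRNAs known as DCL4 products in each small RNA library (points), wild type and amiR-SEAP1. The amiR-SEAP1 points of miR162, miR822 and miR839 lie below the wild-type points, while those of miR838 lie on both sides of them. On this scale the sum of all miRNAs was also lower in amiR-SEAP1 (ratio 0.538). As a share of miRNA counts, the genotypes overlapped for miR162a-3p and miR839-5p.

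miR822, miR839 and miR869 are miRNAs known to be cut by DCL4 rather than DCL1. miR822-5p had 288 and 356 counts in wild type and 127 and 111 in amiR-SEAP1, or 4.53 and 4.93 CPM against 1.68 and 1.58 CPM of all alignments, a ratio of 0.345. The genotypes did not overlap and each pair lay close together. On that scale the sums of all miRNAs did not overlap either, at 33997 and 28263 CPM against 18985 and 14536. The share of single miRNAs without overlap was not counted, so the separation is not a trait particular to miR822-5p. Relative to other miRNAs the difference was −0.85 (edgeR, adjusted p = 0.120), and −0.64 without TMM scaling (edgeR, adjusted p = 0.502). On the scale of all alignments the miR822-5p difference was −1.54 (edgeR, adjusted p = 0.0190). On that scale 17.6% of 295 miRNAs were called lower and 4.41% higher. miR839-5p had 2546 and 2715 counts in wild type and 1744 and 1270 in amiR-SEAP1, a ratio of 0.530 on the scale of all alignments. It was not called on that scale (edgeR, difference −0.92, adjusted p = 0.0523) or relative to other miRNAs (edgeR, difference −0.22, adjusted p = 0.732). miR822-3p had 8 to 21 counts per library, and the rows of miR869 had at most 2 and were not tested.

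The genes whose pattern over the 8 mRNA libraries was most like that of DCL1 were TPP2 (Pearson r = 0.996 on log2(FPKM + 1)), AT3G14830 (0.992), LIG6 (0.991), RAV1 (0.990) and AT1G29357 (0.990), out of 15973 genes that averaged 5 FPKM or more. The points share 4 pairs of near-identical libraries, so these values describe likeness over 4 distinct points. TPP2, a large peptidase, was at 49.1 and 49.5 FPKM in wild-type FLW, 43.9 and 42.7 in wild-type AI and 45.4 to 47.4 in amiR-SEAP1. As for DCL1, the wild-type pairs lay on either side of the amiR-SEAP1 libraries.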

How the data were processed

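Inflorescence RNA was measured as mRNA in 4 libraries and as small RNA in 2 libraries per genotype, grouped by the titles in the labels. The authors deposited FPKM per gene for mRNA, per the file headers, and raw counts per mature miRNA for small RNA. HISAT2 and the TAIR10 build are named in the submitters' processing notes. For the FPKM program, the miRNA counter, the annotation and strand use, the tool or setting is not given in the sources used. Depth is not stated in the FPKM values, and steps between low values put relative depths within a factor of 1.17. Of the small RNA counts, 96.6% to 98.5% fell on lines with no miRNA name, which stayed out of tests, except on the scale of all alignments.

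The mRNA values were tested as log2(FPKM + 1), a scale that understates changes of low genes, with limma (trend) on the means of library pairs with the set as a term, leaving 1 residual degree of freedom, for genes averaging 1 FPKM or more at an FDR of 0.05. For the deposited counts edgeR (4.0.16) quasi-likelihood tests used TMM and filterByExpr, with DESeq2 (1.42.0) as an alternative, under R 4.3.3 with limma 3.58.1. Both tests were also run on simulated data. Other pseudocounts, filters, scalings and designs, and each library left out, were alternatives, and the interaction, the within-set values and DRB4 without single libraries were added after seeing the data. Nothing in the labels says that the libraries are separate plants or cultures, and p-values then cover only the variation among these libraries, possibly technical.

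As a check of pairing, deviations from group means correlated between the wild-type and amiR-SEAP1 libraries of the same number (r = 0.398, 0.420, 0.405 and 0.430), and also between libraries of the same set with other numbers (0.395 to 0.430). The labels give no source for a pairing. Of the gene IDs, 28932 matched the RefSeq table of assembly TAIR10.1, used for names and overlaps only, and no coordinates or sequences are given. The members, lists and tests were chosen with earlier results of these data known. Named genes are the 9 members, the pollen, green tissue and inflorescence markers, and the 5 genes most correlated with DCL1. Also named are the miR162, miR838, miR822, miR839 and miR869 rows with the MIR162 transcripts, and the 2 smallest adjusted p of each list. GRP7, AT4G15417, the MIR838 transcript and the overlapping genes fall outside this rule and were chosen after values were seen.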

Additional observations from a re-analysis of the deposited data

Results flagged for a closer look

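In the 4 amiR-SEAP1 libraries, replicate 3 stood apart for DRB4 at 16.9 FPKM: its gap to the nearest library was 0.889 of the whole range. Of 24 groups checked in this way 1 was past the limit, and chance flags about 1 in 20 groups of independent values, whereas these 4 libraries form 2 near-identical pairs.

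The change between genotypes differed between the header sets for 5 of the 9 genes and for MIR162a, as tested by the interaction in limma, whose error holds the spread within pairs alone. Over all genes 24% were called with a higher and 18.9% with a lower AI change. The AI change minus the FLW change was 0.69 for DCL3, 0.62 for DRB4, 0.37 for DCL1, 0.30 for DCL2 and 0.21 for HYL1 on the log2 scale. For MIR162a it was 0.24 (limma, adjusted p = 0.0347). The DRB4 call was lost without wild-type replicate 1 (0.44, adjusted p = 0.151) and without amiR-SEAP1 replicate 3 (0.36, adjusted p = 0.117).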

How the results depend on the processing

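Limma counts of the 20743 tested genes depended on the design. Taking the 8 libraries as independent gave 1556 genes higher and 975 lower. Adding a set term gave 4676 and 3786 (3 of the 9 genes higher). A pair correlation gave 48 and 17, and the replicate block gave 2852 and 2306 (1 of the 9 higher, SE). The block changed no other call among the 9. Leaving out each library gave 0 to 1 genes higher. Between sets, the same FPKM sum gave 15 higher and 156 lower, and left-out libraries gave 0 to 12 and 0 to 118. In edgeR, 0 miRNAs were lower without TMM, 52 were lower on all alignments, and the replicate block called 38 higher and 14 lower, miR822-5p among them (−0.84, adjusted p = 0.0129), where the labels do not pair the libraries. Left-out libraries gave 0 to 16 higher and 0 to 7 lower. DESeq2 gave an adjusted p of 0.343 for miR822-5p.

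Values near 0 changed sign. At the same FPKM sum the DRB4 difference became 0.014, and the set difference −0.011 for DCL3 and −0.026 for DRB4. With quantile normalization the set difference of HYL1 became 0.0077. With 1 library left out, the DRB4 difference ran from −0.15 to 0.12, and the set differences from −0.028 to 0.00026 for HYL1 and from −0.12 to 0.14 for DRB4. Without TMM, miR162a-3p, miR162a-5p, miR162b-3p and miR162b-5p were at 0.037, 0.048, 0.019 and 0.16. On all alignments miR838 was at −0.35, and with no filter miR162b-5p was at 0.020. With 1 small RNA library left out, miR162a-3p ran from −0.50 to 0.034, miR162b-3p from −0.52 to 0.019, miR162b-5p from −0.27 to 0.14 and miR838 from −0.83 to 0.99. The cause was not tested. The low counts of miR838 limit its precision.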
